A study of Mus musculus with 8 samples.

Results

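The genes described are the integrin alpha chains, the integrin beta chains 1 to 8 and the laminin chains, taken by gene name from the deposited table. The table has 55401 genes, of which 37 fitted: 8 leukocyte integrin chains, 18 matrix integrin chains and 11 laminin chains. The choice used names and no measured value. Integrins are the cell surface receptors through which cells hold on to matrix and to each other. Each receptor is 1 alpha chain joined to 1 beta chain, and the pairing decides what it binds. Collagens are bound by the chains encoded by Itga1, Itga2, Itga10 and Itga11, laminins mainly by those of Itga3, Itga6 and Itga7, and proteins with the RGD peptide by those of Itga5, Itga8, Itgav and Itga2b. Blood cells use their own set, in which the beta 2 chain pairs with the alpha chains encoded by Itgal, Itgam, Itgax and Itgad to bind ICAM proteins, complement fragments and fibrinogen. Laminins are the cross-shaped proteins of basement membranes, built from 1 alpha, 1 beta and 1 gamma chain, and in bone they surround vessels, nerves, fat cells and muscle fibres at the surface.

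RNA was sequenced from cortical bone of C57BL/6J mice in 8 libraries. By the genotype labels all 8 carry Ripk4fl/fl, the floxed form of Ripk4. The 4 control libraries have only that genotype, although other labels call them WT, and the 4 KO libraries (UbcCre/ERT2 Ripk4fl/fl) add a Cre recombinase that is driven by the ubiquitin C promoter and is active only with an estrogen receptor drug. The labels give 4 weeks for both genotypes without saying whether it is an age. The labels name no drug treatment and do not say whether a library is 1 mouse, so p-values measure only the spread between these libraries. The Cre is not restricted to bone cells.

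Library totals ran from 61092688 to 66774693 estimated counts. The mitochondrial genome held 6.17%, 9.21%, 16.1% and 11.7% of counts in control 1 to 4. It held 6.05%, 5.56%, 5.95% and 6.09% in KO 1 to 4, so the groups did not overlap. Ripk4 itself had 10, 4, 0 and 4 estimated counts in control 1 to 4, against 0, 12, 0 and 0 in KO 1 to 4, too few to check the genotype labels. The tissue label was borne out by Dmp1, an osteocyte gene, at 129 to 221 FPKM in control, although marrow and blood transcripts were abundant. In KO Dmp1 was at 28.8 to 76.8 FPKM, below every control library. The sum of 10 osteocyte markers was 463 to 1119 FPKM in control, against 122 to 470 in KO. FPKM divides a gene's fragments by its length and by the depth of the library, so levels of different genes can be compared on it. The sum of 15 skeletal muscle marker genes varied from 159 to 4273 FPKM in control, and from 260 to 1966 in the KO libraries, and was highest in control 3, control 4 and KO 2. In bulk tissue, fewer cells of a type and less RNA per cell cannot be told apart.

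For 2 of the fallers and for Itgam, the alpha chain with the highest mean level, the stretch around the transcription start is shown, to set a laminin, a collagen receptor and a leukocyte chain side by side. Each runs from 250 bases before to 50 bases after the start in RefSeq (GRCm38.p6), plus strand, and capitals mark AGGAAG on either strand, the purine-rich core bound by PU.1, a blood cell factor. 
Itgam promoter: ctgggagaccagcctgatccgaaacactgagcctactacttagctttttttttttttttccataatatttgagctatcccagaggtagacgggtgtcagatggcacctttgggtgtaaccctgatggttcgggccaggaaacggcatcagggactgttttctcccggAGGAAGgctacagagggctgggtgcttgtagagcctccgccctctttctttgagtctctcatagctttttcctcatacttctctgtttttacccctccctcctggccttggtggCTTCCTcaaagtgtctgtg
Lamb2 promoter: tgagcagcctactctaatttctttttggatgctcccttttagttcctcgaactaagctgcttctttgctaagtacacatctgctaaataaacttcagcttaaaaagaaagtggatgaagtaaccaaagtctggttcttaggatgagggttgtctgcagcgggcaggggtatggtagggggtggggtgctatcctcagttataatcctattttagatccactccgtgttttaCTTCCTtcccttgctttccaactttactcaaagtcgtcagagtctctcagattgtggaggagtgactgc
Itga10 promoter: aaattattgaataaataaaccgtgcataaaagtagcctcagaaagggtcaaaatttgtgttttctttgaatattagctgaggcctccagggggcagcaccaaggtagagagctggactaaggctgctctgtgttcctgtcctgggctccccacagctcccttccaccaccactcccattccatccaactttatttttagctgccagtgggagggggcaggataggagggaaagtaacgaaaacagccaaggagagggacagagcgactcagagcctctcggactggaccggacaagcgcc

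These windows lie at chr7:128062390-128062689 for Itgam, chr9:108479612-108479911 for Lamb2 and chr3:96645334-96645633 for Itga10. AGGAAG occurred 2 times in the Itgam window, 1 time in that of Lamb2 and 0 times in that of Itga10. Windows were found for 23 of the 37 genes, 26 windows in all, and 12 of the 23 genes held the motif in at least 1 window. Of all 32851 windows in the table, 35.4% held the motif, counted per window and not per gene. By family it was in 2 of 4 leukocyte chains, 7 of 14 matrix chains and 3 of 5 laminin chains. Itgb2, Itgal, Lama4 and Lamc3 are without a window here. A match is a description of the letters and not a binding site.

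All 37 genes had enough counts to be tested between KO and control. At an adjusted p under 0.05 (edgeR's quasi-likelihood test, Benjamini-Hochberg over 20152 genes), 4 fell, 1 rose and 32 did not pass. The fallers were the laminin chains Lamb2, Lama4 and Lamc3 and the collagen receptor chain Itga10, and the riser was Itgb2. The 4 fallers were 10.8% of the 37 genes against 5.03% of all genes tested, and the 1 riser was 2.7% against 5.31%. In either direction 13.5% passed against 10.3%, so the share called was near the background. By family it was 5.56% of the 18 matrix chains, 12.5% of the 8 leukocyte chains and 27.3% of the 11 laminin chains. At an unadjusted p under 0.05 the count over the 37 genes was 15, or 40.5% against 28.1%. The median log2 fold change was -0.92 over the laminin chains, -0.42 over the matrix integrin chains and 0.22 over the leukocyte chains, against -0.02 over all genes tested. The fitted change was below 0 for 10 of 11 laminin chains, 13 of 18 matrix chains and 3 of 8 leukocyte chains, against 51.6% of all genes. Leaving out control 3 and control 4 left 0 of the 37 genes past the threshold (edgeR; 6 had an unadjusted p under 0.05) and 56 of all 21392 tested, while DESeq2 on all libraries called 12, of which 11 fell. In that omission the log2 fold changes were -0.95 for Lamb2, -0.79 for Lama4, -1.59 for Lamc3, -1.61 for Itga10 and 0.54 for Itgb2.

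**Figure D1:**
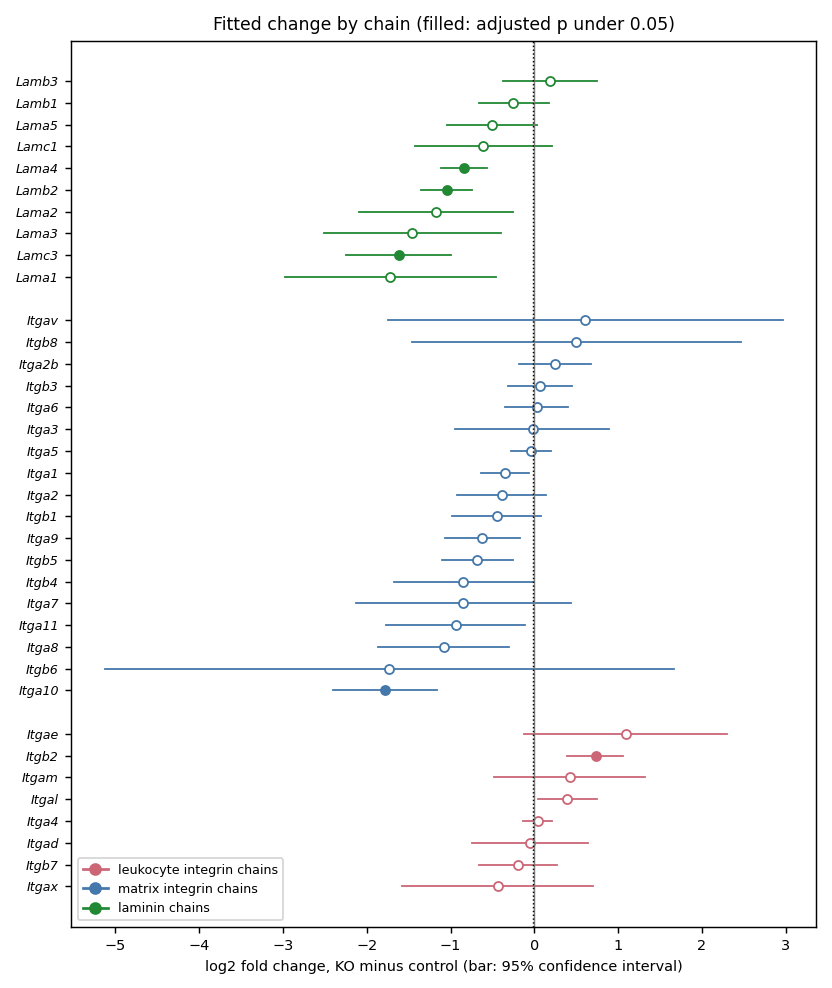
Fitted log2 fold change (KO minus control, x axis) of 36 of the 37 chains (y axis), with 95% confidence intervals as bars, coloured by family, filled where the adjusted p was under 0.05; the dotted line is the median of all genes tested (-0.02). The laminin chains drawn lie to the left of 0 apart from Lamb3, and the filled points are Lama4, Lamb2, Lamc3, Itga10 and Itgb2.

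Most laminin beta chain RNA was from Lamb2 (84.2% to 86.6% of summed FPKM in control, 66.7% to 80.6% in KO), the beta 2 chain found in vessel, nerve and muscle basement membranes. Lamb2 (chromosome 9, 108479736 to 108490530) measured 22.1, 21.2, 23.3 and 22.5 FPKM in control 1 to 4, against 10.6, 13.3, 10.6 and 8.17 in KO 1 to 4. Every KO library was below every control library, and the control libraries lay close together. The fall was -1.04 ± 0.13 on the log2 scale (SE, n = 4 per group; edgeR adjusted p = 0.00711), or 51.5% lower. Its call passed with any 1 library left out (adjusted p at most 0.03). The other beta chains did not pass. Lamb1, the beta chain of most embryonic and vascular laminins, measured 2.94, 3.28, 3.28 and 3.97 FPKM in control, against 2.54, 2.71, 2.2 and 3.65 in KO. Its groups overlapped through KO 4 (edgeR adjusted p = 0.423). Lamb3, the beta chain of epithelial laminin, was at 0.395 ± 0.125 FPKM in control, against 0.439 ± 0.0461 in KO (mean ± SD, n = 4 each, as for all such pairs). Lamb3 overlaps Hsd11b1 on the opposite strand, which had 3337 to 6858 counts per library against 129 to 244 for Lamb3, and with the strand setting unknown its level is uncertain. Gm37691, over 1.9% of Lamb3 on the same strand, had 282 to 655 counts per library. The share of Lamb1 among the summed FPKM of the 3 beta chains was 11.5% to 14.8% in control and 16.4% to 29.8% in KO, a description with no test.

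Of the 5 laminin alpha chains Lama4 fell and the other 4 were lower without passing. Lama4 (chromosome 10, 38965515 to 39110188), the alpha chain of endothelial and fat cell basement membranes, measured 3.36, 3.84, 3.2 and 4.09 FPKM in control 1 to 4, against 1.94, 2.41, 1.96 and 1.64 in KO 1 to 4. The groups did not overlap. The log2 fold change was -0.84 ± 0.12 (edgeR adjusted p = 0.00859), and it passed with any 1 library left out. Lama5, the other abundant alpha chain and also vascular, measured 2.48, 3.82, 4.9 and 3.77 FPKM in control, against 2.12, 3.34, 2.47 and 2.51 in KO. These groups overlapped, because control 1 was inside the KO range (log2 fold change -0.51 ± 0.24, adjusted p = 0.198).

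The 3 remaining alpha chains were scarce. Lama1, known from embryonic basement membranes, ran from 0.26 to 0.512 FPKM in control, and from 0.0227 to 0.192 in the KO libraries, and its groups did not overlap (log2 fold change -1.72 ± 0.55, edgeR adjusted p = 0.084). It passed with DESeq2 (adjusted p = 0.01) and without KO 4, the library in which it was lowest (edgeR adjusted p = 0.0401). Lama2, the chain of muscle and Schwann cell basement membranes, was at 0.436 ± 0.187 FPKM in control, against 0.192 ± 0.0871 in KO (adjusted p = 0.0998), with control 4 the highest at 0.689. Lama3, of the epithelial laminin, was at 0.473 ± 0.195 and 0.173 ± 0.0785 FPKM (adjusted p = 0.0819). DESeq2 also called Lama2 and Lama3 (adjusted p = 0.0238 and 0.0118).

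Among gamma chains the rarer Lamc3 fell and the main chain Lamc1 did not pass. Lamc3 (chromosome 2, 31887291 to 31946539) measured 2.2, 2.21, 1.34 and 3.08 FPKM in control 1 to 4, against 0.753, 0.77, 0.858 and 0.41 in KO 1 to 4. The lowest control library, control 3, was still above the highest KO library. The log2 fold change of -1.62 ± 0.27 (edgeR adjusted p = 0.0128) was the steepest of the called laminin chains and passed with any 1 library left out. Lamc1, the gamma chain of nearly all laminins, measured 3.91, 5.64, 8.5 and 9.59 FPKM in control, against 5.77, 3.92, 2.5 and 5.69 in KO. Control 3 and control 4 were high and control 1 and control 2 were inside the KO range, so the groups overlapped (log2 fold change -0.61 ± 0.36, edgeR adjusted p = 0.31). Without control 3, control 4 and KO 2, an omission chosen after seeing the data, its fitted change was 0.06.

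Summed over the 11 genes, laminin chains were at 38.5, 42, 46.4 and 49 FPKM in control 1 to 4, against at 24.8, 27.8, 21.6 and 22.7 in KO 1 to 4. Lamb2 was the largest single part of each sum. Basement membrane partners moved the same way, with 8 of 20 falling, 0 rising and a median of -0.87. The number called was 5 without control 3 or without KO 3, and 1 without control 3 and control 4 together. Agrn, agrin, which binds laminins, fell from 8.54 ± 0.748 to 4.33 ± 0.685 FPKM, and Col4a5, a basement membrane collagen, from 0.144 ± 0.0355 to 0.0251 ± 0.00934. Col15a1, a basement membrane zone collagen, was at 5.62 ± 1.47 and 1.12 ± 0.514 FPKM, and Sparc, a collagen-binding glycoprotein abundant in bone, at 1082 ± 362 and 185 ± 42.6. The lists used here were drawn up with earlier results of these data known and are not independent evidence of a direction. Of 8 other laminin receptors 4 fell and 0 rose, with a median of -0.73. Dag1, dystroglycan, fell from 12.8 ± 1.49 to 7.28 ± 1.66 FPKM, and Sdc2, a syndecan, from 22.5 ± 2.71 to 8.19 ± 4.21 (edgeR adjusted p = 0.0222 and 0.044). The others called were the sarcoglycans Sgcb and Sgce, partners of dystroglycan. The number called in this list was 0 without control 3, control 4 or KO 3.

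Marker lists of cells that make basement membranes, and of osteoblasts, are given beside the laminins. Of 12 endothelial genes 3 fell (Tie1, Cldn5 and Kdr), with sums of 198 to 219 FPKM in control, against 134 to 191 in KO. Leaving out control 2, control 3, control 4 or KO 3 left 0 endothelial genes called. Of 10 mural and smooth muscle genes 2 fell (Cspg4 and Rgs5), with sums of 158 to 407 and 83.7 to 224 FPKM. Leaving out control 1 gave 3 called mural genes, leaving out KO 2 gave 2, and each other single omission gave 1. Of 10 Schwann cell and nerve genes and of 15 skeletal muscle genes 0 passed (edgeR; 4 and 0 had an unadjusted p under 0.05), with sums of 39.7 to 66.6 against 21.4 to 37.9 FPKM for the nerve genes. Of 12 osteoblast genes 7 fell, with sums of 3565 to 8782 FPKM in control, against 591 to 1136 in KO. Among these fallers, Sparc is also a basement membrane partner above, and Col1a1, Col1a2 and Ibsp are also matrix ligands below. Those lists are therefore not separate observations. With 1 library left out, 5 to 11 osteoblast genes were called, 11 without KO 4 and 5 without control 2, control 3, control 4 or KO 2. In these 5 lists 0 markers were at or under 12 counts, about 3 fragments, in every library. Their part in the laminin result was not tested. With the muscle score as a covariate, Lamb2, Lama4 and Lamc3 each passed (edgeR adjusted p = 0.00732, 0.0149 and 0.023). The other marker lists were not used as covariates.

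Of the matrix integrin chains, the collagen receptor chain Itga10 passed and the other 17 did not. The share called, 5.56%, was below the 10.3% of all genes tested. Itga10 (chromosome 3, 96645584 to 96664519), a chain of cartilage and of cells at bone surfaces, measured 7.04, 7.53, 10 and 6.83 FPKM in control 1 to 4, against 2.75, 3.19, 1.64 and 1.51 in KO 1 to 4. All KO libraries were below all control libraries. The log2 fold change was -1.78 ± 0.27 (edgeR adjusted p = 0.0101), or 70.9% lower, and it passed with any 1 library left out. Gm42957 lies over 39.7% of Itga10 on the same strand, so reads could be divided between them. Gm42957 had 21 to 135 counts per library, against 536 to 3654 for Itga10. Itga11, the collagen receptor of mesenchymal cells, measured 6.48, 8.28, 7.47 and 7.96 FPKM in control, against 2.9, 3.32, 2.02 and 7.03 in KO. In 3 KO libraries it was below every control library, while KO 4 was within the control range. Its log2 fold change of -0.94 ± 0.36 did not pass in edgeR with all libraries (adjusted p = 0.132) and was -1.46 without KO 4 (adjusted p = 0.00814). DESeq2 on all libraries called it (adjusted p = 0.0462).

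The remaining collagen receptor chains, Itga1 and Itga2, did not pass. Itga1 ran from 1.59 to 1.99 FPKM in control, and from 1.26 to 1.52 in the KO libraries, a small difference without overlap (log2 fold change -0.35 ± 0.13, edgeR adjusted p = 0.114). Gm49395 lies over 44.8% of Itga1 on the same strand, with 10 to 408 counts per library, so reads could be divided between them. Pelo, over 1.2% of Itga1 on the same strand, had 779 to 1648 counts per library. Itga2, which platelets also carry, was at 4.17 ± 1.34 FPKM in control, against 3.09 ± 0.681 in KO (adjusted p = 0.315). Itga10 is known from cartilage, so its markers are given beside it. Of 12 chondrocyte genes 11 could be tested and 3 fell, with sums of 57.8 to 124 FPKM in control, against 6.5 to 34 in KO, and Col2a1, the main cartilage collagen, was at 30.1 to 107 FPKM in control, against 3.06 to 6.83 in KO. The chondrocyte count was 1 without control 3 or control 4. In that list 0 markers were at or under 12 counts in every library, and its part in the change of Itga10 was not tested.

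**Figure D2:**
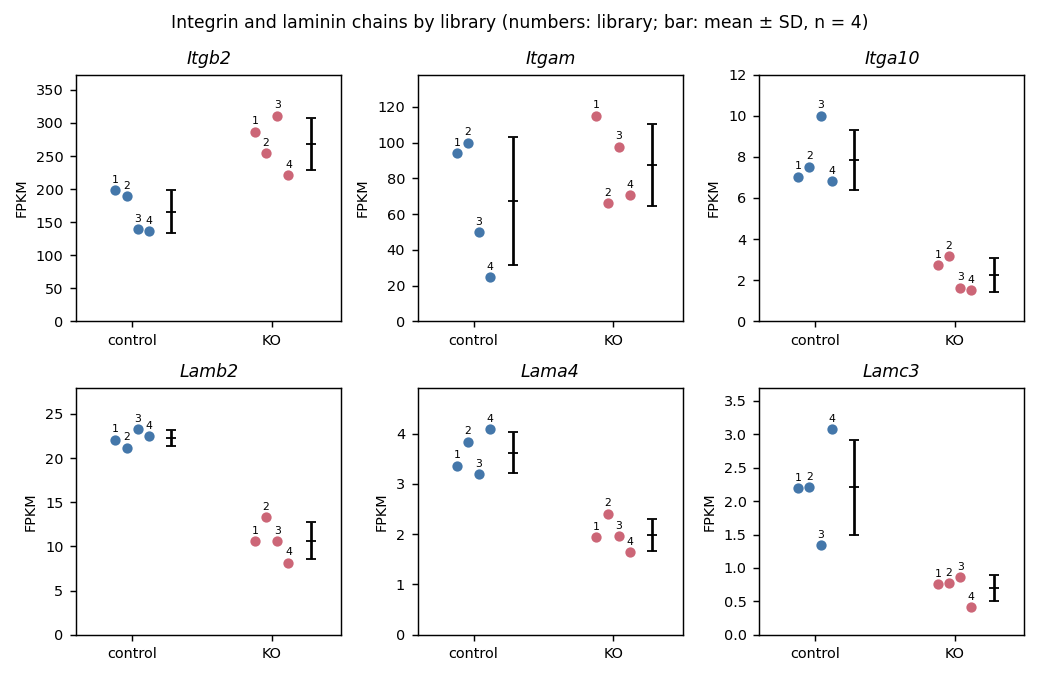
FPKM (y axis) of Itgb2, Itgam, Itga10, Lamb2, Lama4 and Lamc3 in each control (blue) and KO (red) library, numbered by library, with the mean and SD of 4 libraries as a bar. Control and KO points are apart for Itgb2, Itga10, Lamb2, Lama4 and Lamc3 and overlap for Itgam.

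Of the laminin-binding alpha chains 0 of 3 passed (edgeR; 0 had an unadjusted p under 0.05, and DESeq2 also called 0). Itga6, the widespread laminin receptor also carried by platelets, measured 3.95, 2.62, 2.66 and 3.5 FPKM in control, against 3.88, 3.23, 2.52 and 3.03 in KO. The groups covered the same range, and the 95% confidence interval of the fold change was 0.783 to 1.32. Itga7, the laminin receptor of muscle fibres, measured 1.04, 1.36, 4.05 and 2.46 FPKM in control, against 0.924, 2.32, 1.35 and 0.451 in KO. Its 3 highest libraries, control 3, control 4 and KO 2, were also those with the highest muscle scores (2.62, 1.68 and 1.39, the mean centred log2 CPM of the muscle markers). Without control 3 and control 4 its log2 fold change went from -0.85 to 0.13. With the muscle score as a covariate it kept its sign, at -0.59 (edgeR adjusted p = 0.278). The part of muscle content in the change of Itga7 was not tested. Itga3, an epithelial laminin receptor, was at 0.963 to 1.64 FPKM in KO 1 to 3 and 3.38 in KO 4, against 1.59 to 2.15 in control.

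The RGD-binding chains held the most abundant matrix receptor of the tissue, that of platelets. Itga2b, the platelet fibrinogen receptor alpha chain, measured 69.2, 43.7, 43.1 and 69.0 FPKM in control, against 73.1, 65.8, 50.5 and 71.2 in KO. Its partner Itgb3 measured 86.1, 69.4, 57.0 and 99.9 FPKM in control, against 88.1, 80.9, 64.2 and 85.0 in KO. Both were high in control 1 and control 4, and neither differed between the groups beyond the spread (log2 fold changes 0.25 ± 0.19 and 0.07 ± 0.17, edgeR adjusted p = 0.429 and 0.832). Of 13 platelet and megakaryocyte genes 0 passed (edgeR), with 2 at an unadjusted p under 0.05. Their sum was highest in control 4 and control 1, at 1568 and 1435 FPKM. It was 850 FPKM in KO 3, where Itga2b was at 50.5. In KO 4 it was 882 FPKM, although Itga2b was at 71.2 and Itgb3 at 85.0. Whether these 2 chains follow platelet content was not tested. Itgb3 is also carried by osteoclasts, of whose 10 marker genes 1 rose (Mmp9, which neutrophils also make) and 0 fell. That call was lost without control 1, control 3, control 4, KO 1 or KO 3, and with library totals, no filter or limma.

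Itga5, the fibronectin receptor alpha chain, measured 12.7, 14.3, 12.5 and 13.5 FPKM in control, against 12.3, 12.5, 11.4 and 14.3 in KO. It was among the steadiest of the 37 genes, with a 95% confidence interval of 0.825 to 1.15 for the fold change. Itga8, a receptor of mesenchymal cells for nephronectin, ran from 0.389 to 0.634 FPKM in control, and from 0.154 to 0.37 in the KO libraries without overlap, and did not pass (log2 fold change -1.08 ± 0.34, edgeR adjusted p = 0.0811). Npnt, which encodes nephronectin and is one of the 8 basement membrane partners that fell, went from 2.91 ± 0.92 to 1.27 ± 0.239 FPKM (adjusted p = 0.0335). Itga9, a tenascin and VCAM-1 receptor, measured 2.93, 4.52, 3.02 and 4.29 FPKM in control, against 3.08, 2.4, 1.87 and 2.05 in KO. Its groups overlapped through KO 1 (log2 fold change -0.62 ± 0.20, edgeR adjusted p = 0.079). Itga9 passed without KO 1 (edgeR adjusted p = 0.0485), and DESeq2 called Itga8 and Itga9 (adjusted p = 0.0192 and 0.0278).

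Itgav, the alpha chain of the vitronectin receptor of osteoclasts and of several TGF-beta activating integrins, followed no genotype. It measured 3.54, 0.452, 0.307 and 0.356 FPKM in control 1 to 4, against 3.16, 0.392, 0.267 and 2.87 in KO 1 to 4. Control 1, KO 1 and KO 4 were high and the other 5 libraries low, with no library between. The fit gave a log2 fold change of 0.61 ± 1.03 (edgeR adjusted p = 0.746), with a 95% confidence interval from 0.298-fold to 7.79-fold. Of 17946 genes with over 200 counts in total, 2 were more than 4-fold higher in each of these 3 libraries than in any of the other 5, Itgav and Nnt. Nnt (chromosome 13, 119335448 to 119408997), the mitochondrial transhydrogenase that is known to carry a deletion in the C57BL/6J substrain, measured 3.34, 0.375, 0.15 and 0.332 FPKM in control, against 7.56, 0.284, 0.399 and 2.18 in KO. The pattern and Nnt were picked after the values were seen, they are a description with no test, and what sets these 3 libraries apart was not tested. The beta partners of Itgav did not follow it. Itgb5 measured 24.3, 25.6, 23.9 and 34.3 FPKM in control, against 18.3, 22.1, 13.5 and 12.6 in KO.

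**Figure D3:**
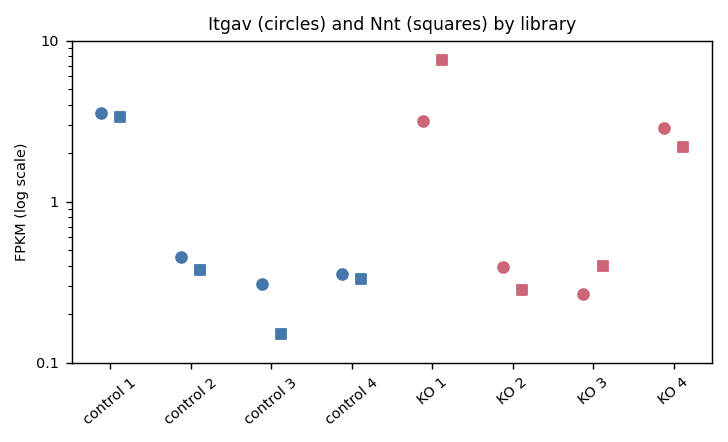
FPKM on a log scale (y axis) of Itgav (circles) and Nnt (squares) in the 4 control (blue) and 4 KO (red) libraries (x axis). Both genes are above 2 FPKM in control 1, KO 1 and KO 4 and below 0.5 FPKM in the other 5 libraries.

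Of the 6 matrix beta chains 0 passed (edgeR; 2 had an unadjusted p under 0.05). Itgb5, which pairs with the alpha chain of Itgav, had no KO library above its lowest control library and lay at the edge of the threshold (log2 fold change -0.68 ± 0.19, adjusted p = 0.0525). It passed with DESeq2 (adjusted p = 0.0101) and without KO 2 (edgeR adjusted p = 0.0312). Itgb1, the partner of most matrix alpha chains, measured 41.0, 71.4, 44.4 and 47.9 FPKM in control, against 51.4, 36.7, 25.5 and 33.3 in KO. The groups overlapped through KO 1, with control 2 the highest (log2 fold change -0.45 ± 0.24, adjusted p = 0.256). Itgb4, the hemidesmosome and nerve chain that pairs with the product of Itga6, was at 2.15 ± 0.693 and 1.2 ± 0.487 FPKM (adjusted p = 0.172). Itgb6 and Itgb8 were near the limit of detection, with 0 to 155 and 6 to 146 counts per library, and the highest Itgb8 count was in KO 4. Epithelial and keratinocyte markers, of cells that carry Itgb4 and the epithelial laminin, had 1 riser (Sfn) and 1 faller (Epcam) among 9 tested of 10. The keratin genes Krt14 and Krt5 did not pass and had 0 counts in KO 1 against 493 to 956 and 318 to 582 in the other 7 libraries.

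Relative to each other the alpha chains that pair only with beta 1 had a different makeup. Itga5 supplied 28.3% to 33.4% of their summed FPKM in control and 40.8% to 47.0% in KO. Itga10 supplied 15.2% to 22.6% in control and 4.67% to 10.4% in KO. Neither range overlapped. These shares are a description with no test, and they follow from the levels above, in which Itga5 stayed level while Itga10 fell.

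**Figure D4:**
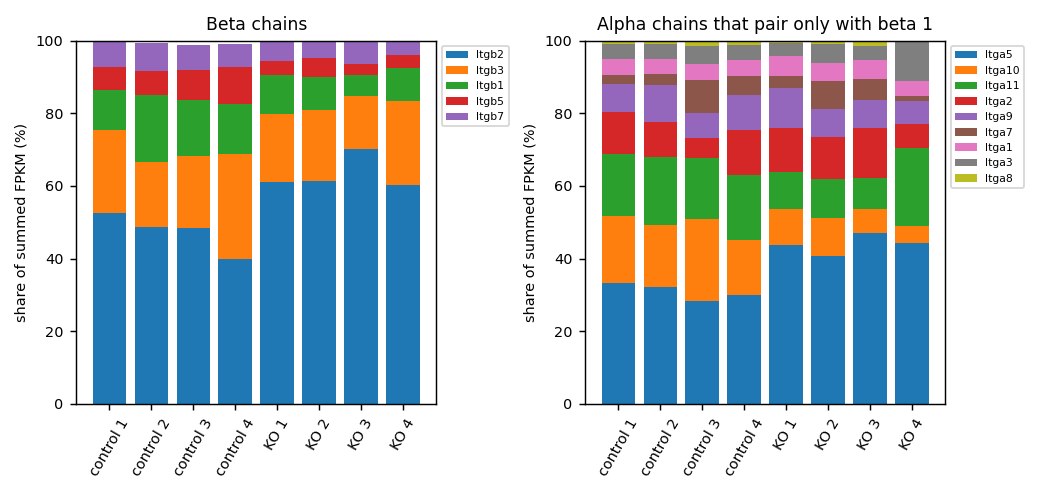
Share of summed FPKM (y axis, %) by library (x axis) among the integrin beta chains (left; Itgb4, Itgb6 and Itgb8 are in the total and not drawn) and among the alpha chains that pair only with beta 1 (right). Itgb2 holds 39.8% to 52.5% of the beta chains in control and 60.3% to 70.2% in KO, and Itga5 holds 28.3% to 33.4% and 40.8% to 47.0% of the alpha chains.

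Among leukocyte chains Itgb2 rose and the other 7 did not pass. The share called, 12.5%, was near the 10.3% of all genes tested. Itgb2 (chromosome 10, 77530252 to 77565686), the shared beta chain of the neutrophil, monocyte and lymphocyte receptors, was the most abundant of the 37 genes. It measured 198, 189, 139 and 137 FPKM in control 1 to 4, against 287, 254, 311 and 221 in KO 1 to 4. The groups did not overlap, with KO 4 nearest to control. The log2 fold change was 0.73 ± 0.15 (edgeR adjusted p = 0.0212), a fold change of 1.31 to 2.09 by its 95% confidence interval. The call was lost without control 3, control 4, KO 1 or KO 3 (adjusted p = 0.059, 0.0535, 0.0504 and 0.0615).

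The alpha partners of beta 2 did not pass. Itgal, of the lymphocyte and neutrophil ICAM receptor, measured 19.0, 20.4, 14.2 and 14.0 FPKM in control, against 26.4, 19.4, 23.0 and 18.1 in KO, with an overlap through control 1 and control 2 (log2 fold change 0.39 ± 0.15, edgeR adjusted p = 0.139). Itgam, the CD11b chain of neutrophils and monocytes, measured 94.0, 100, 49.9 and 25.0 FPKM in control, against 115, 66.3, 97.7 and 70.8 in KO. Control 3 and control 4 were low, and the other control libraries were inside the KO range (log2 fold change 0.42 ± 0.40, adjusted p = 0.54). The table holds another gene, Gm49368, over 99.9% of Itgam on the same strand, at 30.9 to 49.8 FPKM in control, against 27.9 to 70.9 in KO, so the division of reads between them is uncertain. The summed counts of the pair were 46409, 44255, 34452 and 23865 in control, against 53176, 43524, 60123 and 46559 in KO. With Gm49368 added to Itgam, a choice made after seeing the data, the log2 fold change was 0.44 ± 0.21 (adjusted p = 0.221).

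The remaining leukocyte chains did not pass either. Itgax, the CD11c chain of dendritic cells and some macrophages, measured 4.42, 6.22, 4.25 and 2.74 FPKM in control, against 6.72, 2.07, 2.94 and 1.08 in KO (log2 fold change -0.44 ± 0.50, edgeR adjusted p = 0.61). KO 1 had the highest level and KO 4 the lowest. Its share among the 4 alpha partners of beta 2 was 3.69% to 6.14% in control and 1.18% to 4.48% in KO. Itgad, the CD11d chain of splenic and marrow macrophages, was at 2.48 ± 0.707 and 2.34 ± 1.08 FPKM. Itgb7, the beta chain of gut-homing lymphocytes and mast cell precursors, was at 24.6 ± 4.55 and 21.0 ± 6.21 FPKM (adjusted p = 0.582). Itga4, which pairs with beta 1 or beta 7 on most blood cells other than mature neutrophils, was at 5.3 ± 0.49 and 5.33 ± 0.224 FPKM, with a 95% confidence interval of 0.912 to 1.16 for the fold change. Itgae, the chain of tissue-resident T cells, had 7 to 32 counts in control, against 37 to 80 in KO (adjusted p = 0.222), and overlaps Haspin on the opposite strand.

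Markers of neutrophils moved with Itgb2, while 0 genes of the other leukocyte lists rose. Of 16 neutrophil genes 11 rose and 0 fell, with sums of 31929 to 45572 FPKM in control, against 62771 to 74942 in KO. Ly6g, a neutrophil surface gene of that list, did not pass (log2 fold change 0.25 ± 0.20, edgeR adjusted p = 0.467). In KO 4 it was at 84.6 FPKM, below the lowest control library at 98.4. Cd177, a neutrophil surface protein that associates with beta 2 integrins, rose from 286 ± 69.2 to 598 ± 35.4 FPKM. Of 14 monocyte and macrophage genes 0 passed (5 had an unadjusted p under 0.05), with sums of 502 to 665 and 465 to 645 FPKM. Of 9 dendritic cell genes 4 fell, among them Zbtb46 and the antigen presentation genes Cd74 and H2-Aa, with sums of 140 to 162 and 63.1 to 105 FPKM. Of 14 T and NK cell genes 0 passed with 0 at an unadjusted p under 0.05, of 12 B cell genes 3 fell, and of 9 mast cell and basophil genes 0 passed with 1 at an unadjusted p under 0.05. In these lists 0 markers were at or under 12 counts in every library, and their part in the rise of Itgb2 was not tested. Itgb2l (chromosome 16), an integrin beta 2-like gene of neutrophils outside the naming rule and chosen after its values were seen, rose from 39.7 ± 8.45 to 74.9 ± 17.5 FPKM (log2 fold change 0.94 ± 0.19, edgeR adjusted p = 0.02).

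Of the neutrophil genes, 6 to 13 were called with 1 library left out (6 without KO 3) and 0 without control 3 and control 4. The dendritic cell count was 1 without control 2, control 3 or KO 3, and for B cells 0 were called when control 3, control 4 or KO 3 was left out.

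Genes of the proteins that switch integrins on and link them to actin had no shared direction. Of 36 genes 35 could be tested, 5 rose and 2 fell, where 5.31% of all genes tested rose and 5.03% fell. The number of fallers was thus near the background share. The list's median was 0.06 on the log2 scale, against -0.02 over all genes tested. The risers were Sharpin, an inhibitor of integrin activation that also belongs to a ubiquitin ligase complex (10 ± 0.637 to 14.5 ± 1.25 FPKM), Apbb1ip, which recruits talin in leukocytes (14.2 ± 2.16 to 20.6 ± 3.35), the kinase Ptk2b, the focal adhesion protein Zyx and Itgb1bp1, which binds the beta 1 tail. The fallers were Parva, an adhesion scaffold (5.39 ± 0.506 to 3.16 ± 0.721 FPKM), and Fermt2, the kindlin of non-blood cells (9.12 ± 0.97 to 5.31 ± 1.55; edgeR adjusted p = 0.0437). Fermt3, the kindlin of blood cells, was at 49.6 ± 10.8 and 59.3 ± 10.5 FPKM (adjusted p = 0.319). With 1 library left out the number called ran from 0, without control 2 or KO 3, to 8, without KO 2 or KO 4, and DESeq2 called 15.

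Some ligands of both families fell. Of 17 matrix ligands 5 fell and 0 rose, and the list's median was -0.54 on the log2 scale. They were the collagen genes Col1a1 and Col1a2, Ibsp, bone sialoprotein, from 332 ± 27.3 to 158 ± 44.5 FPKM, Postn, periostin, from 29.4 ± 10.2 to 7.06 ± 3.36, and Edil3. Col1a1, Col1a2 and Ibsp are also among the osteoblast fallers given above. Of 11 leukocyte integrin ligands 10 could be tested and 2 fell. These were Jam2, a junction protein bound by alpha 4 beta 1 (9.13 ± 1.45 to 3.01 ± 0.597 FPKM, edgeR adjusted p = 0.0025), and Jam3, bound by the Itgam receptor (4.88 ± 1.41 to 2.01 ± 0.68, adjusted p = 0.0288). The median of that list was -0.40, and 1 was called without control 1, control 2, control 4, KO 1 or KO 3.

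The groups of 10 of the 37 genes did not overlap in FPKM, or 27% against 20.7% of all genes tested. They were the 5 called genes with Lama1, Itgb5, Itga8, Itga1 and Itgae, the last with few counts. KO was lower in 8 (21.6% against 11.5% of all genes) and higher in 2 (5.41% against 9.21%).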

How the data were processed

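The authors deposited 1 table that holds, per gene and library, an estimated count and an FPKM, 55401 genes in all. Per the submitters' processing notes, the build was GRCm38 and the tools included StringTie 1.3.4d, HISAT2 2.0.4 and DESeq2, with no role stated. How reads were counted, and with which strand setting, was not stated. No rounding was needed, since the authors' estimated counts are whole. A count of 4 was far more frequent than 3 (7854 against 2724 values), so 1 fragment was taken as about 4 counts, and 3 fragments, 12 counts, as the floor, which covers counting error only. Of the 37 genes, 34 have the same coordinates in GENCODE M21. Columns were mapped by name, and 0 were left unused. No libraries were duplicates within sampling noise (smallest chi-square per degree of freedom 90.9).

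The main test was edgeR 4.0.16 (R 4.3.3), quasi-likelihood, two-sided, scaled by TMM after filterByExpr (minimum count 10), over all 20152 genes that passed, at an adjusted p of 0.05. The code was tested on simulated counts. Alternatives used DESeq2 1.42.0, limma 3.58.1 on log2(FPKM + a pseudocount of 0.1, 0.5 or 1), other scalings and filters, a muscle score, a replicate block and omitted libraries.

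The genes and lists were chosen with earlier results of these data known. Every gene of the naming rule is in the counts and medians, and 1 of them is not reported here by name. Values in every library are given for called genes and for the 2 most abundant of each class, and at most 4 called genes by smallest p come from each list; others named were chosen after their values were seen. Lists were described by counts and medians, with no set test.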

Additional observations from a re-analysis of the deposited data

Results flagged for a closer look

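In 5 of 74 groups of 4 libraries, 1 library stood far from the other 3 relative to the group's range (Dixon's criterion at 95%, which chance meets in about 1 in 20 groups). Itgav in control 1 was at 3.54 FPKM against 0.307 to 0.452 in the other control libraries. Itgb5 in control 4 was at 34.3 FPKM against 23.9 to 25.6. Itga2 in KO 4 was at 2.07 FPKM against 3.39 to 3.49. Itga4 in KO 1 was at 5.66 FPKM against 5.18 to 5.25, a small difference within a narrow group. Itgae in control 4 was at 0.0211 FPKM, or 7 counts, against 0.097 to 0.0987.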

How the results depend on the processing

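Of 848 values of the 37 log2 fold changes under the alternatives, 779 kept their direction and side of the threshold, 19 lost a call, 17 gained one and 33 changed sign. The number called, 5, was 12 with DESeq2 (5 matrix integrin, 6 laminin and 1 leukocyte chain) and 4 to 7 with 1 library left out (matrix 1 to 2, leukocyte 0 to 1, laminin 3 to 4, against 1, 1 and 3 with all libraries). Beside the 5 called genes, DESeq2 called Lama1, Lama2, Lama3, Itga8, Itga9, Itga11 and Itgb5. The matrix count was 2 with DESeq2 size factors, with library totals without the mitochondrial genome and with a minimum count of 40. Without control 3 and control 4, and without control 3, control 4 and KO 2, all 4 counts were 0 (edgeR; 6 and 7 genes at an unadjusted p under 0.05), where 56 and 23 genes of the whole table passed. In each list of partners, ligands or markers, the first omission left 0 to 4 genes called. The first omission was planned with earlier results known; the second, and adding overlapping genes, were chosen after seeing the data.

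With the replicate number as a block the counts were also 0 in each family (edgeR; 14 at an unadjusted p under 0.05; adjusted p = 0.0525 to 0.078 for the 5 called genes, with log2 fold changes of -1.05 for Lamb2, -0.84 for Lama4, -1.61 for Lamc3, -1.81 for Itga10 and 0.73 for Itgb2), and Itgb8 went to -0.34. No label says that the numbers pair the libraries. Deviations of same-numbered libraries correlated at 0.106, -0.172, 0.0916 and -0.055, and 1 of 4 control libraries correlated best with its own number. These values show no pairing and cannot exclude one.

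Signs changed as follows, in genes that had not passed. Without control 3 and control 4 the log2 fold change was -0.12 for Lamb3, -0.004 for Itga4, -0.08 for Itgam, -0.16 for Itgav, 0.14 for Itga3, 0.13 for Itga7 and 1.37 for Itgb6. Without KO 2 as well it was -0.16 for Lamb3, 0.06 for Lamc1, 0.19 for Itga3 and 0.42 for Itgb6. With library totals it was -0.06 for Itga4, -0.07 for Itga6 and -0.04 for Itgb3; there the median of all genes was -0.11 and 37.3% of calls rose, against 51.4% with TMM. Itga6 was at -0.002, -0.002 and -0.003 with limma at pseudocounts of 0.5, 0.1 and 1, and Itgav at -0.31 with the muscle score. With 1 library left out the ranges were -0.40 to 0.09 for Itgad, -0.60 to 0.18 for Itga3, -0.13 to 0.01 for Itga5, -0.08 to 0.13 for Itga6, -0.01 to 0.19 for Itgb3 and -0.94 to 0.88 for Itgb8. The causes were not tested. On CPM the KO share of Itgam was 72% against 76% on FPKM. Depth limits Itgb6, Itgb8 and Itgae, whose counts did not exceed 155 in any library.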
